A study of Ambystoma mexicanum with 15 samples.

Results

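The response of axolotl spinal cord 1 day after injury was read from 6 of the 15 arrays of the series: the 3 arrays labelled as sampled 1 day after injury without drug, set against the 3 arrays of uninjured cord. The axolotl (Ambystoma mexicanum) is a salamander that repairs its spinal cord throughout life. All animals were white axolotls aged 1 month, and each array carried RNA from the pooled tissue of 10 animals. Injury meant surgical removal of a piece of the cord, after which the injured area was collected. The labels call only the uninjured tissue mature, although they give both groups the same age. For the drug experiment the labels describe an injection of ivermectin or of water into the central canal just before surgery, and they do not state whether the 1 day animals received water. The other 9 arrays were 3 each at 3 days and 7 days after injury and at 1 day after injury with ivermectin, a drug that opens ligand-gated chloride channels. They entered the fit and are used only where stated. Expression is given on the log2 scale for each probe set, and a difference is the mean at 1 day minus the mean in uninjured cord, ± its standard error from the fit (n = 3 arrays in each group). A gene is said to rise or fall where its adjusted p was below 0.05.

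Cells that survive a cut switch on a first wave of genes whose transcription needs no new protein, among them FOS and EGR1, and shortly afterwards genes of inflammation, clotting, low oxygen and stress hormones. Ependymoglial cells, which line the central canal and carry motile cilia, are the cells from which the axolotl cord regrows, by entering division and extending across the gap over the following days. Muscle, meninges, skin and blood lie around the cord and can come with a dissected piece.

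The cord label was checked against marker genes. The glial genes GFAP, SLC1A3 and VIM were measured far above the dim end of the arrays in both groups, as was myelin basic protein (MBP). Of 60 neuron and synapse genes measured, 19 at 1 day and 20 in uninjured cord had a mean below 4.28, the highest lower quartile of any array, and a level below that was not shown to be above background. CKM, the muscle creatine kinase, read 14.29, 14.28 and 14.27 at 1 day, against 14.03, 14.09 and 14.11 in uninjured cord. The summed linear level of 42 sarcomere genes was 162710 to 165700 at 1 day and 104830 to 105830 in uninjured cord, so muscle RNA was present in both groups. The summed level of 24 fibroblast and meningeal genes was 53031 to 53705 at 1 day and 27223 to 29088 in uninjured cord. For 29 ependymoglial genes it was 35253 to 36984 in uninjured cord, and for 35 epidermal genes 65339 to 66874. The 60 neuron genes summed to 8043 to 8164 there, and 23 myelin genes to 6142 to 6290. Sums of different lists depend on their genes and probe sets, so they do not give shares of tissue. In RNA from whole tissue, more cells of a type and more RNA per cell cannot be told apart. Arrays of a group correlated at 0.998 to 0.999 at 1 day and 0.997 to 0.998 in uninjured cord over all probe sets, and arrays of the different groups at 0.971 to 0.972. The arrays labelled ivermectin stood at 0.996 to 0.997 with the uninjured arrays and at 0.967 to 0.968 with the 1 day arrays, although they share the 1 day label. The spiked poly-A transcripts read 8.08 ± 0.0441 at 1 day and 7.54 ± 0.0286 in uninjured cord (SD, n = 3 each). Scaling the arrays to those transcripts moved the median difference of all probe sets to -0.55, so every difference below is relative to the middle of the array and not to an amount of RNA. Their part in any single result was not tested.

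Most probe sets changed, and most of those by a small amount. Of 20035 probe sets, 5024 rose (25.1%) and 5762 fell (28.8%), which makes 53.8% in either direction (limma, Benjamini-Hochberg adjusted). Among the 8639 genes with a symbol, each read from its brightest probe set, 2229 rose (25.8%) and 2578 fell (29.8%), or 55.6% together, and the median difference was -0.00. These shares are the background for every count of genes below. The lists were chosen with earlier results of these data known, so a share set beside the background is a description and not a test. Of the called probe sets, 7064 differed by less than 1.5-fold, and the median size of a called difference was 0.44. A rise of at least 2-fold was seen in 278 genes (3.22%) and a fall of at least 2-fold in 226 (2.62%). At 4-fold the numbers were 38 up and 14 down, and at 8-fold 7 up and 1 down. The arrays of the groups did not overlap for 61.4% of genes. Of 9084 probe sets without a symbol, 2416 rose (26.6%) and 2276 fell (25.1%), so much of the response lay in transcripts that are not named here. For 168 of the 1740 genes with several probe sets, probe sets were called in opposite directions.

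**Figure D1:**
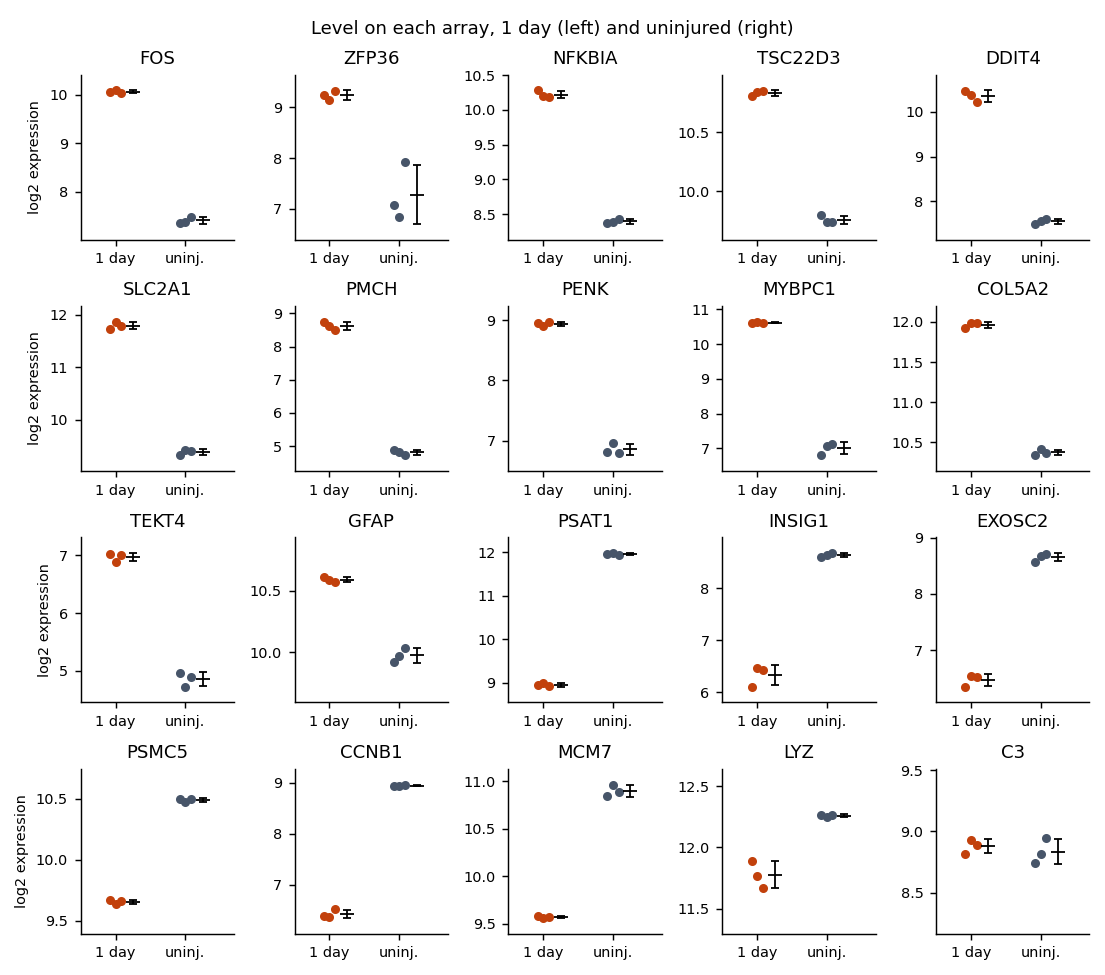
Log2 expression of 20 genes on each array (points), with the mean ± SD of 3 arrays beside them; the 1 day arrays are on the left and the uninjured arrays on the right of each panel, and the vertical scale differs between panels. The 2 groups overlap for C3 and stand apart for the other 19 genes, and ZFP36 has the widest spread among the uninjured arrays.

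Several early transcription factors rose at 1 day. Of 11 AP-1 and activity-induced factors measured, 6 rose, with a median of 0.26. FOS, which pairs with JUN proteins to form AP-1, read 10.06, 10.09 and 10.03 at 1 day, against 7.35, 7.38 and 7.48 in uninjured cord. The difference was 2.65 ± 0.07 (adjusted p = 4.46e-13), a 6.29-fold rise, and no other member came near it. EGR1, a zinc finger factor of the same wave, read 9.50, 9.54 and 9.56 at 1 day, against 8.71, 8.73 and 8.69 in uninjured cord, a difference of 0.82 ± 0.06. The other risers were BATF3 (0.92 ± 0.10), the orphan nuclear receptor NR4A1 (0.80 ± 0.10), JUNB (0.54 ± 0.09) and JUND (0.26 ± 0.04). JUN itself had a difference of -0.09 ± 0.07 (adjusted p = 0.273) and was not called. ATF3 was not analysed here. Of 10 Krüppel-like factors, 5 rose, led by KLF13 (0.83 ± 0.10, with an uninjured level near the dim end) and KLF3 (0.71 ± 0.07), while KLF6 fell (-0.62 ± 0.13).

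Genes that shut such signals off moved both ways. DUSP1, the phosphatase that switches off p38 and JNK kinases, read 10.32, 10.35 and 10.27 at 1 day, against 8.53, 8.68 and 8.61 in uninjured cord, a difference of 1.70 ± 0.08 (adjusted p = 2.41e-10). Among the 13 MAP kinase feedback genes 6 rose and 5 fell, and without uninjured array 3 the fallers numbered 3. ERRFI1, which restrains the EGF receptor, rose by 0.65 ± 0.09. SPRED1 and ETV4, which follow FGF and ERK signalling, fell (-0.63 ± 0.12 and -0.86 ± 0.08). ZFP36, which marks cytokine messages for decay, read 9.25, 9.14 and 9.33 at 1 day, against 7.08, 6.83 and 7.93 in uninjured cord. Its difference was 1.96 ± 0.22 (adjusted p = 2.02e-06), with no overlap although the uninjured arrays spread over more than a unit. Its relative ZFP36L1 rose (0.59 ± 0.06) and ZFP36L2 fell (-1.37 ± 0.08). The antiproliferative gene BTG1 rose (0.70 ± 0.04). In the whole list of mRNA decay and early regulators, 10 of 16 rose and 3 fell, with a median of 0.42.

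NF-kB genes moved both ways. NFKBIA, which holds NF-kB in the cytoplasm and is itself induced by it, read 10.28, 10.20 and 10.18 at 1 day, against 8.37, 8.39 and 8.44 in uninjured cord (1.82 ± 0.06, adjusted p = 5.15e-12). NFKBIE and NFKB2 followed at 0.79 ± 0.05 and 0.74 ± 0.07. RELB fell (-0.79 ± 0.11) to a level near the dim end, and TNIP1, a partner of the A20 enzyme, fell as well (-0.80 ± 0.07). TNFAIP3, the A20 gene, had a difference of -0.15 ± 0.09 and was not called. Over the list, 5 of 19 rose and 6 fell, shares that sit near the background. SOCS1, a brake on JAK kinases, read 11.44, 11.38 and 11.40 at 1 day, against 10.52, 10.46 and 10.46 in uninjured cord, a difference of 0.93 ± 0.05. SOCS3 (0.22 ± 0.11) was not called, although without uninjured array 1 it was (adjusted p = 0.0392), and STAT3 fell (-0.57 ± 0.11).

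Interferon genes were mostly lower. Of 17 measured, 10 fell and 3 rose, with a median of -0.25. The fallers included the RNA-editing enzyme ADAR (-0.79 ± 0.06), IRF7 (-0.79 ± 0.14), IRF8 (-0.65 ± 0.05) and NMI (-0.66 ± 0.05), and USP18 was the largest riser (0.71 ± 0.12). Among cytokines and their receptors 11 were measured, of which 1 rose and 3 fell. CXCL12, a chemokine that guides cell migration, rose (0.58 ± 0.10), and the receptor genes IL17RA, IL4R and IL13RA1 fell by 0.59 to 0.67 on the log2 scale. TGFB1 was not called (0.07 ± 0.05), and IL1B was not analysed here.

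Of 15 genes of eicosanoid and phospholipid mediators 4 rose and 5 fell. The fallers numbered 3 when 1 day array 1, 1 day array 2, uninjured array 2 or uninjured array 3 was left out. PTGS2, the inducible cyclooxygenase that starts prostaglandin synthesis, read 5.87, 5.81 and 6.30 at 1 day, against 4.77, 4.82 and 5.74 in uninjured cord. It rose by 0.88 ± 0.24 (adjusted p = 0.00665), although the highest uninjured array lay close below the 1 day arrays. PTGES, a prostaglandin E synthase, rose (0.58 ± 0.06), and PTGES3, which also serves as an HSP90 cochaperone, fell (-1.62 ± 0.06). S1PR1, a receptor for sphingosine phosphate on vessels and white cells, rose (1.01 ± 0.09).

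Most complement genes rose. Of 17 measured, 10 rose and 3 fell, with a median of 0.28. SERPING1, which blocks the C1 protease, read 6.92, 7.00 and 6.97 at 1 day, against 5.37, 5.30 and 5.36 in uninjured cord, a difference of 1.62 ± 0.08 (adjusted p = 2.58e-10). The pore component C9 rose (1.07 ± 0.07), as did C1QB, part of the recognition unit (0.95 ± 0.08), and CD59, which shields host cells from the pore (0.77 ± 0.05). C3, the hub of the cascade, read 8.82, 8.93 and 8.89 at 1 day, against 8.74, 8.82 and 8.95 in uninjured cord with overlapping groups (0.04 ± 0.06). That was its brightest probe set, and the average of the C3 probe sets was called higher. Properdin, the stabiliser of the alternative pathway encoded by CFP, fell (-0.84 ± 0.15). In coagulation 6 of 14 rose and 4 fell. TFPI2, a protease inhibitor of clotting and matrix enzymes, led with 1.58 ± 0.07, while tissue factor (F3) fell (-0.55 ± 0.07).

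Leucocyte markers moved both ways at 1 day. Of 18 macrophage and microglia genes, 9 fell and 3 rose, and their summed level was 9195 to 9359 at 1 day and 11395 to 11703 in uninjured cord. ACP5 (-0.82 ± 0.06), SIGLEC1 (-0.70 ± 0.09), CD68 (-0.64 ± 0.12) and AIF1 (-0.41 ± 0.05) were lower. C1QB, given above with complement, is also in this list and was its largest riser (0.95), farther from 0 than any faller. CTSS, a lysosomal protease, fell on its brightest probe set (-0.79 ± 0.06), and its probe sets were called in opposite directions, so that their average rose (0.63). The lysozyme gene LYZ read 11.89, 11.77 and 11.67 at 1 day, against 12.27, 12.25 and 12.26 in uninjured cord, a difference of -0.48 ± 0.06. Of 22 genes in the neutrophil list only 5 were measured, of which 3 fell and 1 rose. NCF1, a subunit of the oxidase, had -0.72 ± 0.06. CYBB, counted in the macrophage list as well, was another faller (-0.27). With so few genes measured, these counts do not show how neutrophils changed. Of 9 lymphocyte genes 2 rose and 1 fell, and the risers were CD74, the invariant chain of antigen presentation (1.15 ± 0.06), and IGLL1, an immunoglobulin light chain relative (1.85 ± 0.06). The summed linear level of the 9 genes, of which only CD74 and IGLL1 rose, was 1402 to 1442 at 1 day and 607 to 637 in uninjured cord, without overlap. The other 6 genes were not called, and 4 of the 9 had a mean below 4.28 in each group.

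The glucose transporter gene SLC2A1 and the stress gene DDIT4 rose steeply. SLC2A1, which carries glucose into brain and embryo, read 11.73, 11.87 and 11.78 at 1 day, against 9.33, 9.42 and 9.41 in uninjured cord (2.40 ± 0.06, adjusted p = 3.36e-13), a 5.29-fold rise. DDIT4, an inhibitor of mTOR that answers to low oxygen and to glucocorticoids, read 10.46, 10.37 and 10.21 at 1 day, against 7.51, 7.56 and 7.62 in uninjured cord (2.79 ± 0.08, adjusted p = 4.89e-13). HMOX1, which breaks down heme, rose (1.38 ± 0.04), and LOXL2, a collagen cross-linker, rose (1.47 ± 0.05). The hypoxia list as a whole was mixed, with 9 of 23 up and 5 down. EPAS1, an oxygen-regulated factor, rose (0.59 ± 0.06), whereas VHL, which directs its destruction, fell (-0.74 ± 0.09). HIF1A, another oxygen-regulated factor, named after its values were seen, fell (-0.40).

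Of 14 glucocorticoid-responsive genes, 10 rose and 1 fell, with a median of 0.60. The list shares DDIT4, DUSP1, ERRFI1 and NFKBIA with groups already described. TSC22D3, also named GILZ, an anti-inflammatory protein, read 10.80, 10.84 and 10.85 at 1 day, against 9.80, 9.74 and 9.74 in uninjured cord (1.07 ± 0.05, adjusted p = 7.39e-11). CRISPLD2, a secreted protein, rose (1.60 ± 0.05), as did the clock gene PER1 (0.63 ± 0.08). FKBP5, a standard marker of the hormone, had a difference of 0.25 ± 0.07 at levels near the dim end in both groups.

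Glycolytic enzymes rose more often than they fell. Of 24 genes 13 rose and 2 fell, with a median of 0.24. The muscle enolase ENO3 was the largest at 0.86 ± 0.04, followed by TPI1 (0.60 ± 0.04), HK1 (0.56 ± 0.06) and ALDOA (0.49 ± 0.04). PYGM, the muscle glycogen phosphorylase, rose (1.09 ± 0.06), and PCK2, the mitochondrial enzyme of glucose synthesis, fell (-1.22 ± 0.06). The sarcomere genes rose on the same arrays, and their part in the rise of the muscle enzymes was not tested. In fat oxidation 15 of 34 genes rose and 6 fell. CPT1A, which admits fatty acids to mitochondria, rose on its brightest probe set (1.17 ± 0.05), with another probe set called lower. G0S2, which blocks the breakdown of stored fat, read 11.23, 11.09 and 11.09 at 1 day, against 9.17, 9.08 and 9.17 in uninjured cord (2.00 ± 0.07). Of 50 respiratory chain genes 7 rose and 13 fell, with NDUFB1 of complex I (2.00 ± 0.11, from the dim end) and COX4I2 of complex IV (1.03 ± 0.04) the largest risers and CYC1 of complex III (-0.47 ± 0.04) the largest faller.

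The enzymes that make serine fell. PSAT1, the aminotransferase of that pathway, averaged 8.96 ± 0.04 at 1 day and 11.96 ± 0.02 in uninjured cord (SD, n = 3 each), and the groups did not overlap. The difference was -3.01 ± 0.05 (adjusted p = 3.42e-15), the largest fall of any named gene and the only one beyond 8-fold. PSPH, the last enzyme of the pathway, read 6.05, 5.95 and 5.90 at 1 day, against 7.89, 8.13 and 8.12 in uninjured cord (-2.08 ± 0.09), and PHGDH, its entry enzyme, fell as well (-0.75 ± 0.07). SHMT2, which passes serine carbon into mitochondrial folate, fell (-0.92 ± 0.05), and CTH, which makes cysteine, fell (-0.67 ± 0.13). GLDC, which breaks glycine down, rose (0.78 ± 0.05). Over the list of 19, 7 fell and 4 rose.

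Other genes listed as targets of ATF4, the factor that drives these enzymes when amino acids run short, were divided. Of 21 genes in the list, ATF4 itself among them, 10 fell and 7 rose. DDIT3, a stress factor, read 9.84, 9.88 and 9.80 at 1 day, against 10.90, 10.85 and 10.87 in uninjured cord (-1.03 ± 0.05), and ATF5 (-0.91 ± 0.06) and the transporter SLC7A1 (-0.97 ± 0.11) fell. GPT2 had the largest fall of the list (-1.11), and DDIT4, given above, the largest rise (2.79). SESN1, an mTOR inhibitor that is also in the apoptosis and p53 list, rose (1.18 ± 0.06). SESN2, named after its values were seen and also in both lists, fell (-0.515). ASNS, the asparagine synthetase, was not called (-0.01 ± 0.05), and ATF4 itself fell slightly (-0.19 ± 0.05).

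Most chaperone genes of the endoplasmic reticulum fell. Of 32 genes of the unfolded protein response 20 fell and 4 rose, with a median of -0.28. HSPA5, the central chaperone BiP, read 10.01, 10.05 and 10.16 at 1 day, against 11.18, 10.96 and 11.48 in uninjured cord (-1.13 ± 0.18). HYOU1 (-1.52 ± 0.20), DNAJB9 (-1.24 ± 0.06) and CRELD2 (-0.81 ± 0.05) fell with it. In the cytosol the small heat shock proteins went the other way, with CRYAB at 1.73 ± 0.04 and HSPB1 at 0.72 ± 0.05. Over the cytosolic heat shock list 16 of 33 fell and 6 rose. Among antioxidant genes 18 of 37 rose and 10 fell. PRDX2, a peroxidase abundant in red cells, rose (1.22 ± 0.06), as did extracellular SOD3 (1.12 ± 0.09), whereas GCLC, the limiting enzyme of glutathione synthesis, fell (-0.79 ± 0.06).

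Sterol synthesis genes were lower. Of 24 measured, 15 fell and 1 rose. INSIG1, a sterol sensor that is itself a target of the pathway, read 6.11, 6.47 and 6.42 at 1 day, against 8.62, 8.65 and 8.68 in uninjured cord (-2.32 ± 0.09, adjusted p = 8.87e-12). FDPS read 7.28, 7.26 and 7.28 at 1 day, against 9.14, 9.23 and 9.22 in uninjured cord (-1.93 ± 0.06), and the early enzyme HMGCS1 (-1.08 ± 0.06), CYP51A1 (-1.08 ± 0.06) and SQLE (-1.02 ± 0.07) fell as well. ELOVL6, which lengthens saturated fatty acids, fell (-1.37 ± 0.10), while ELOVL2, which lengthens polyunsaturated ones, rose (1.22 ± 0.12).

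**Figure D2:**
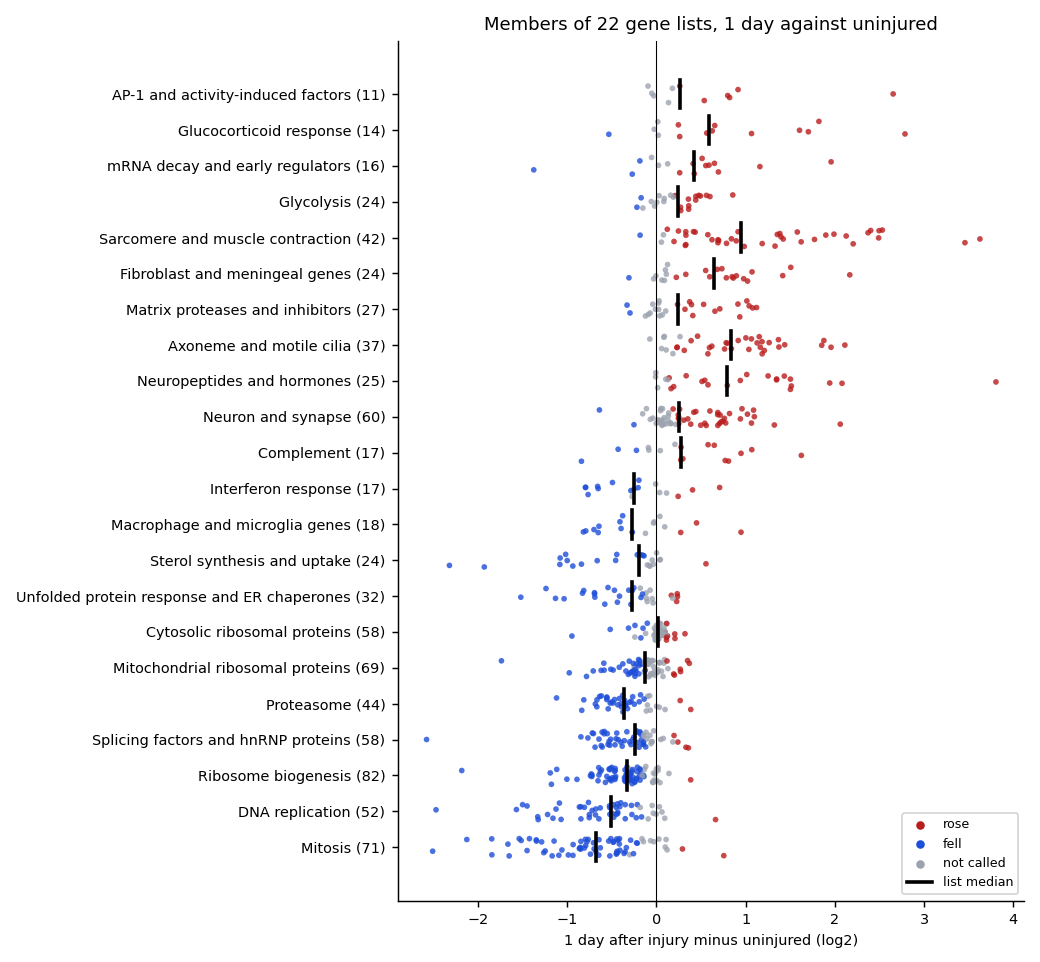
Log2 difference, 1 day minus uninjured, of every measured member of 22 gene lists (points; the number of members is in parentheses), with the list's median as a black bar; red points rose, blue points fell and grey points were not called. Members of the mitosis, DNA replication and ribosome biogenesis lists lie mostly left of 0, and members of the sarcomere, axoneme and neuropeptide lists mostly right of it.

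Ribosome biogenesis genes were mostly lower. Of 82 ribosome biogenesis genes 65 fell and 1 rose, with a median of -0.33, against 29.8% falling among all genes. EXOSC2, a subunit of the RNA exosome, read 6.35, 6.53 and 6.52 at 1 day, against 8.57, 8.67 and 8.71 in uninjured cord (-2.18 ± 0.06, adjusted p = 5.79e-13). POLR1A, the large subunit of RNA polymerase I, which transcribes ribosomal RNA, fell (-1.19 ± 0.08). The nucleolar proteins NOP2 (-1.18 ± 0.06) and NOLC1 (-1.12 ± 0.06) fell. RRP12 (0.39 ± 0.08), named after its values were seen, was the only member to rise, and averaging its probe sets ended that call. Among smaller units, looked at after the values were seen, 6 of 7 RNA polymerase I genes and 8 of 9 exosome genes fell.

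Cytosolic ribosomal proteins differed little. Of 58 genes 8 rose and 7 fell, with a median of 0.02. RPL14 was the farthest from 0 (-0.95 ± 0.11), followed by RPL21 (-0.52 ± 0.05). The count of risers depended on the processing and ran between 3 and 16 over the alternatives. Mitochondrial ribosomal proteins fell in 31 of 69 cases and rose in 7, with a median of -0.12. MRPL47 (-1.74 ± 0.08) and MRPL4 (-0.98 ± 0.06) moved farthest. Translation factors fell in 17 of 47 cases and rose in 9, a share of fallers near that of all genes, with EIF4H (-1.44 ± 0.11) the largest and EEF2K, the kinase that stops elongation, the largest riser (0.71 ± 0.07, from a level near the dim end).

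Splicing factors fell in 42 of 58 cases and rose in 4, with a median of -0.24. ILF2, a double-stranded RNA binding protein, read 5.83, 5.90 and 5.98 at 1 day, against 8.46, 8.49 and 8.48 in uninjured cord (-2.57 ± 0.05), the largest fall of its list. PTBP1, which represses exons used in neurons, fell (-0.84 ± 0.05), as did TRA2B (-0.77 ± 0.05), SNRPA of the U1 particle (-0.72 ± 0.05) and HNRNPA1 (-0.69 ± 0.07). The proteasome fell across its parts. Of 44 genes 34 fell and 2 rose, with a median of -0.36. PSMC5, a motor ATPase of the regulatory cap, read 9.67, 9.63 and 9.66 at 1 day, against 10.50, 10.47 and 10.50 in uninjured cord (-0.84 ± 0.05, adjusted p = 1.62e-09). PSMF1, a proteasome inhibitor, had the largest fall (-1.12 ± 0.09). PSMD8 of the cap (-0.81 ± 0.04) and PSMA5 of the core (-0.68 ± 0.06) fell by similar amounts. Divided by unit after the values were seen, 12 of 13 core subunits, 6 of 6 cap ATPases and 12 of 14 other cap subunits fell. Their medians were -0.43, -0.47 and -0.38. In autophagy and the lysosome the directions were even, with 14 of 47 up and 16 down. There the conjugation genes ATG4B (0.82 ± 0.05) and MAP1LC3B (0.64 ± 0.05) rose, and the lysosomal enzyme PPT1 fell (-0.79 ± 0.10).

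**Figure D3:**
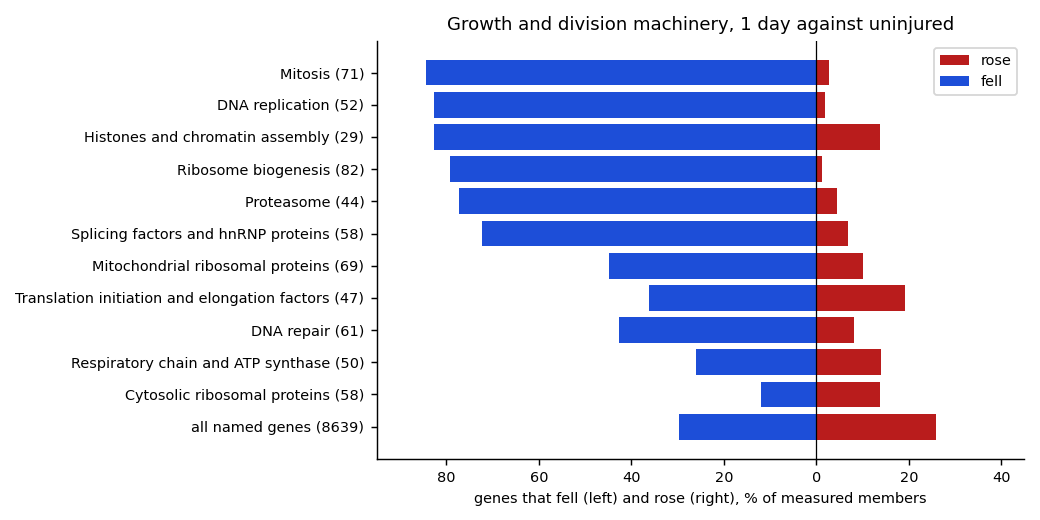
Percent of the measured members of 11 gene lists that fell (blue, left of 0) or rose (red, right of 0) at 1 day against uninjured, with the same shares over all 8639 named genes in the bottom row. Mitosis, DNA replication, chromatin assembly, ribosome biogenesis, proteasome and splicing genes fell in 72.4% to 84.5% of cases, and cytosolic ribosomal proteins in 12.1%.

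Genes of DNA replication and mitosis were mostly lower at 1 day. Of 52 DNA replication genes 43 fell and 1 rose (median -0.51), and of 71 mitosis genes 60 fell and 2 rose (median -0.68). The genes that govern entry into the cycle had 13 of 27 lower, 5 higher and a median of -0.14. There CCNE2 (-1.38 ± 0.09), CDC25A (-1.23 ± 0.05) and E2F3 (-1.55 ± 0.09) fell. MYC, which drives ribosome production and entry into the cycle, read 6.48, 6.58 and 6.64 at 1 day, against 7.57, 7.54 and 7.72 in uninjured cord (-1.04 ± 0.07, adjusted p = 6.77e-09). CDKN1B, the inhibitor p27 that holds cells out of the cycle, read 11.13, 11.24 and 11.23 at 1 day, against 10.06, 10.03 and 10.03 in uninjured cord and rose (1.16 ± 0.05), as did E2F4, a factor that represses cycle genes in resting cells (0.42 ± 0.10), named after its values were seen.

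MCM7, a subunit of the helicase that opens DNA for copying, read 9.59, 9.57 and 9.57 at 1 day, against 10.84, 10.96 and 10.89 in uninjured cord (-1.32 ± 0.05). All 6 measured MCM2 to MCM7 subunits fell, grouped so after the values were seen, with a median of -0.78. TK1, which makes thymidine phosphate (-2.47 ± 0.09), CDC6, which loads the helicase (-1.50 ± 0.08), and UHRF1, which carries methylation through replication (-1.57 ± 0.05), fell too. PCNA, the sliding clamp, fell by less (-0.50 ± 0.05). In mitosis the cyclin CCNB1 read 6.40, 6.38 and 6.52 at 1 day, against 8.93, 8.93 and 8.96 in uninjured cord (-2.51 ± 0.06, adjusted p = 1.21e-13). The kinases AURKA (-2.12 ± 0.06) and PLK1 (-1.84 ± 0.06) and the midzone motor KIF23 (-1.84 ± 0.15) fell with it, while MKI67 moved by -0.44 ± 0.07. Histone chaperones and chromatin proteins fell in 24 of 29 cases, among them ASF1B (-1.59 ± 0.12), EZH2 (-0.87 ± 0.09) and HMGA2, a chromatin protein of immature cells (-1.21 ± 0.05). Risers were few, and the largest in these lists, named after their values were seen, were the survivin gene BIRC5 (0.76 ± 0.09, from the dim end), MCM8 (0.66 ± 0.09) and HMGA1 (0.62 ± 0.05). DNA repair genes fell in 26 of 61 cases, with TDG (-1.18 ± 0.11), CHEK1 (-0.90 ± 0.09) and BRCA1 (-0.88 ± 0.10) the largest.

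Genes that p53 can induce did not move one way. Of 31 apoptosis and p53 genes 10 rose and 13 fell. GADD45B (1.40 ± 0.09), CCNG1 (1.07 ± 0.05) and TP53INP1 (0.94 ± 0.08) rose. PLK2 (-1.33 ± 0.07), GADD45A (-0.85 ± 0.06) and MDM2, the ligase that destroys p53 (-0.34 ± 0.10), fell.

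Nearly all sarcomere genes rose. Of 42 sarcomere genes 39 rose and 1 fell, with a median of 0.95. MYBPC1, a myosin binding protein of slow fibres, read 10.62, 10.64 and 10.60 at 1 day, against 6.80, 7.06 and 7.13 in uninjured cord (3.63 ± 0.08, adjusted p = 6.18e-14), a 12.3-fold rise. ACTN2, an actin crosslinker of the Z disc, read 8.82, 9.19 and 9.06 at 1 day, against 5.45, 5.59 and 5.65 in uninjured cord (3.46 ± 0.09). MYL3, a light chain of slow and cardiac myosin, read 12.51, 12.48 and 12.45 at 1 day, against 10.03, 9.93 and 10.00 in uninjured cord (2.49 ± 0.04). The troponins of slow fibres TNNC1 (2.53 ± 0.05) and TNNI1 (2.50 ± 0.05) rose as much.

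The rise was uneven between fibre types. Among 15 isoforms typical of slow or cardiac muscle 13 rose and 1 fell, with a median of 2.37. Among 14 isoforms typical of fast muscle all 14 rose, with a median of 0.63. This division was made after the values were seen and was not tested. The median level of the slow and cardiac isoforms was 10.84 at 1 day and 8.70 in uninjured cord, and that of the fast isoforms 12.43 at 1 day and 11.69 in uninjured cord. Array signal flattens towards its bright end, and the part of brightness in this contrast was not tested. ATP2A2, the calcium pump of slow muscle and of most other cells, was the slow-type gene that fell (-0.41 ± 0.06).

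Most genes of muscle calcium handling and energy supply rose. FHL1 (1.65 ± 0.05), the calcium store protein CASQ2 (1.47 ± 0.10, from a level near the dim end) and CHRNE, a subunit of the adult muscle acetylcholine receptor (1.05 ± 0.07), were higher. TRIM63, a ubiquitin ligase that marks wasting muscle, read 7.69, 7.51 and 7.38 at 1 day, against 6.18, 6.27 and 6.30 in uninjured cord (1.28 ± 0.13). MYOG, which drives myoblasts to fuse, rose (1.48 ± 0.09), and MYF5 rose by less (0.47 ± 0.06). RAPSN, which clusters acetylcholine receptors under the nerve, fell (-0.49 ± 0.05) and was named after its values were seen. In all, 26 of 34 calcium and energy genes rose and 5 fell, the farthest by 0.71 on the log2 scale. Of 12 genes in the myogenic list 4 rose and 8 were not called. The list is not of factors alone. Besides MYOG and MYF5, its risers were a filament gene and an adhesion gene that are also counted in the sarcomere and neuron lists.

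**Figure D4:**
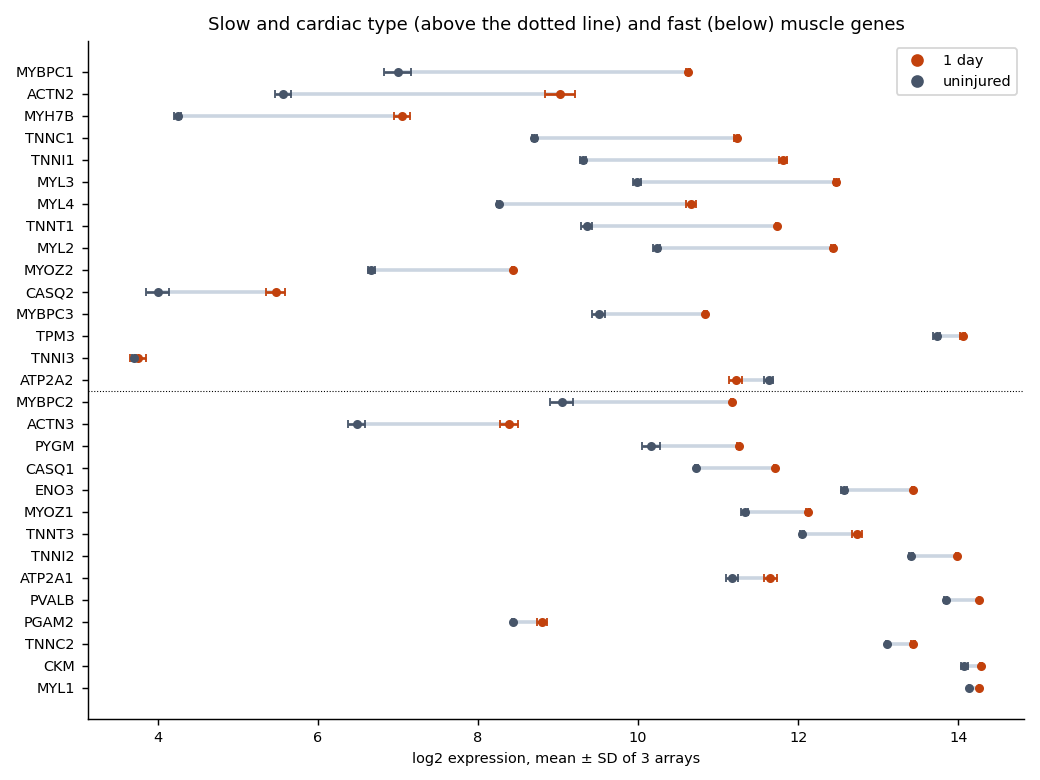
Log2 expression (mean ± SD of 3 arrays) of 29 muscle genes at 1 day (orange) and in uninjured cord (grey), joined by a line; slow and cardiac type genes are above the dotted line and fast type genes below it, each ordered by difference. The lines of the slow and cardiac type genes are mostly longer than those of the fast type genes, and each fast type gene lies higher at 1 day.

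Collagens were divided. Of 29 collagens 13 rose and 11 fell, and of 8 fibrillar collagens, counted after the values were seen, 6 rose and 1 fell. COL5A2, which sets the width of collagen I fibrils, read 11.92, 11.99 and 11.99 at 1 day, against 10.34, 10.41 and 10.37 in uninjured cord (1.59 ± 0.08, adjusted p = 1.97e-10). COL4A1 of the basement membrane read 10.79, 10.83 and 10.78 at 1 day, against 9.33, 9.40 and 9.15 in uninjured cord (1.50 ± 0.07). Its partner COL4A2 rose by as much (1.53 ± 0.06). Of 4 basement membrane collagens, counted after the values were seen, the other 2, COL4A5 and COL4A6, fell (-0.30 each). COL1A1, the main collagen of skin and bone, rose by 0.86 ± 0.05, while COL2A1 of cartilage and notochord was not called on its brightest probe set (0.01 ± 0.05). The average of the COL2A1 probe sets was called lower. COL28A1 (-1.90 ± 0.12) and COL17A1, which anchors the basal epidermis (-1.01 ± 0.05), fell. Of 22 collagen assembly enzymes 11 rose and 3 fell, and among the risers was ADAMTS2, which trims procollagen (1.29 ± 0.11).

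Of 49 laminins and glycoproteins 28 rose and 7 fell. Fibrillin FBN1 rose on its brightest probe set (3.37 ± 0.08), with another probe set called lower. LAMA2 (1.63 ± 0.10) and LAMA4 (1.42 ± 0.08), the laminin chains of muscle and of vessels, rose, as did fibronectin FN1 (1.16 ± 0.06) and tenascin TNC (0.85 ± 0.05). Among proteoglycans, brevican BCAN, a perineuronal matrix protein of the nervous system, read 9.68, 9.63 and 9.64 at 1 day, against 6.99, 6.92 and 6.86 in uninjured cord (2.73 ± 0.05). CSPG5, another neural proteoglycan, rose (1.61 ± 0.07), and KERA, keratocan of cornea and tendon, fell (-1.99 ± 0.11). Fibroblast and meningeal genes rose in 16 of 24 cases, led by dermatopontin DPT at 11.25, 11.25 and 11.24 at 1 day, against 9.16, 9.14 and 8.94 in uninjured cord (2.17 ± 0.06) and by FOXC1, a factor of the meninges (1.42 ± 0.08).

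Matrix proteases and their inhibitors rose more often than they fell, with 14 of 27 up and 2 down. MMP2, a gelatinase, read 13.51, 13.53 and 13.47 at 1 day, against 12.45, 12.40 and 12.42 in uninjured cord (1.08 ± 0.05). TIMP1, an inhibitor of such enzymes, read 13.68, 13.69 and 13.66 at 1 day, against 12.64, 12.61 and 12.66 in uninjured cord (1.04 ± 0.04), a difference within the standard errors of that of MMP2. MMP9 was not called (0.03 ± 0.14). In the actin list 15 of 45 rose and 14 fell, where TAGLN and CNN1, both of smooth muscle, rose (2.22 ± 0.06 and 1.30 ± 0.07), and WASL, which nucleates branched actin, fell (-0.91 ± 0.09). Of 33 adhesion genes 5 rose and 9 fell. FERMT1, an integrin activator of epithelium (-1.58 ± 0.09), and ITGA3 (-0.86 ± 0.09) fell.

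Most genes of the motile cilium rose. Of 37 measured, 30 rose, with a median of 0.84, and their summed level was 3200 to 3305 at 1 day and 1563 to 1596 in uninjured cord. TEKT4, a filament of the axoneme, read 7.02, 6.89 and 7.00 at 1 day, against 4.96, 4.73 and 4.89 in uninjured cord (2.11 ± 0.07, adjusted p = 4.74e-12). TEKT2 (1.96 ± 0.08), DNALI1, a dynein light chain (1.88 ± 0.15), and RSPH9 of the radial spoke (1.85 ± 0.11) rose too. Of 14 dynein arm genes, counted after the values were seen, 8 rose, several from levels near the dim end. FOXJ1, the master factor of motile cilia, read 4.35, 4.26 and 4.56 at 1 day, against 4.34, 4.29 and 4.23 in uninjured cord with overlapping groups (0.10 ± 0.08). In the transport machinery shared by all cilia 14 of 42 genes rose and 3 fell.

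Ependymoglial genes were divided, 13 of 29 up and 6 down. GFAP, the glial filament, read 10.61, 10.59 and 10.58 at 1 day, against 9.92, 9.97 and 10.03 in uninjured cord (0.62 ± 0.05, adjusted p = 2.93e-08). The glutamate transporter SLC1A3 (0.87 ± 0.06), the fatty acid carrier FABP7 (0.81 ± 0.11) and vimentin VIM (0.42 ± 0.04) rose. ZIC1, a dorsal neural factor (-1.34 ± 0.15), HES1, a Notch effector (-0.88 ± 0.08), and ID3 (-0.77 ± 0.08) fell. The gap junction gene GJA1 was not called (0.06 ± 0.07). Among 23 myelin genes 9 rose and 4 fell. MBP rose (0.67 ± 0.05), as did ERMN (1.30 ± 0.13) and the lipid enzyme UGT8 (1.17 ± 0.12), whereas CNP fell (-1.01 ± 0.11).

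Neuronal genes rose more often than they fell. Of 60 measured, 33 rose and 2 fell, with a median of 0.25. SCG3, a granin of secretory vesicles, read 5.84, 6.01 and 6.17 at 1 day, against 3.87, 3.94 and 4.04 in uninjured cord (2.06 ± 0.09), and its uninjured level was near the dim end. SYT4 (1.32 ± 0.12), GAP43, a protein of growing axons (1.10 ± 0.09), SNCB (1.09 ± 0.07), STMN4 (1.07 ± 0.07) and the axonal tau gene MAPT (1.02 ± 0.09) rose. Of 18 motor neuron and transmitter genes 6 rose and 1 fell. SLC17A6, the vesicular glutamate transporter, had 0.60 ± 0.08 and the motor neuron factor ISL1 0.48 ± 0.06.

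Most neuropeptides and hormones rose. Of 25 measured, 20 rose, with a median of 0.80. PMCH, the precursor of melanin-concentrating hormone, read 8.75, 8.61 and 8.49 at 1 day, against 4.88, 4.82 and 4.73 in uninjured cord (3.80 ± 0.11, adjusted p = 4.46e-13). PENK, the enkephalin precursor, read 8.95, 8.91 and 8.97 at 1 day, against 6.82, 6.97 and 6.79 in uninjured cord (2.08 ± 0.07). TAC1, the substance P precursor, read 8.42, 8.37 and 8.18 at 1 day, against 6.39, 6.35 and 6.41 in uninjured cord (1.94 ± 0.09). NPY (1.51 ± 0.11), ADCYAP1, which encodes PACAP (1.50 ± 0.10), and PTHLH, a parathyroid hormone relative (1.50 ± 0.08), rose as well. The 1 day arrays of these 6 genes lay above the uninjured arrays without overlap.

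Few receptors and channels moved far, and many were dim. Of 35 transmitter receptors 15 rose (42.9%, against 25.8% of all genes) and 0 fell (against 29.8%). In both groups 18 of the 35 had a mean below 4.28. The purinergic receptor P2RX5, gated by ATP, read 9.33, 9.35 and 9.37 at 1 day, against 6.70, 6.69 and 7.06 in uninjured cord (2.53 ± 0.08), and the kainate receptor GRIK2 rose (1.44 ± 0.05). GLRA1, a glycine receptor of the kind that ivermectin opens, was near the dim end in both groups and was not called (0.08 ± 0.10), and GLRA2 rose (0.45 ± 0.15). Without 1 day array 2, uninjured array 1 or uninjured array 2 the call of GLRA2 was lost, with adjusted p of 0.0574, 0.0611 and 0.0639. Of 38 ion channels 11 rose, a share near that of all genes, and 2 fell, with the calcium channel CACNA1G the largest riser (1.15 ± 0.09). A mean below 4.28 in both groups was found for 16 of these 38. Among pumps and junction genes the water channels AQP1 (-1.33 ± 0.05) and AQP3 (-1.38 ± 0.09) fell, and the gap junction gene GJC1 rose (0.95 ± 0.09).

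Growth factor genes moved both ways. HBEGF, an EGF-like factor shed at wounds, averaged 9.04 ± 0.04 at 1 day and 7.82 ± 0.04 in uninjured cord (SD, n = 3 each), a difference of 1.22 ± 0.05. EREG, of the same family, read 8.10, 8.12 and 8.10 at 1 day, against 9.76, 9.77 and 9.72 in uninjured cord (-1.64 ± 0.05). The groups of both genes stood apart, in opposite directions. Binding proteins of insulin-like growth factor moved apart too, with IGFBP3 up (1.32 ± 0.06) and IGFBP2 down (-1.43 ± 0.06). In the list of 43 such signals 14 rose and 7 fell, and FGF8 had 0.46 ± 0.09. In the Wnt pathway 10 of 33 rose (30.3%, against 25.8% of all genes) and 2 fell. SFRP4 (1.01 ± 0.10), DKK3 (0.91 ± 0.09) and WNT2B (0.81 ± 0.07) rose the most, and the inhibitor WIF1 fell (-0.78 ± 0.07). SFRP4 and WNT2B started near the dim end. LEF1, a nuclear effector and target of the pathway, was not called (-0.18 ± 0.14).

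In the BMP and TGF-beta pathway 10 of 38 rose and 8 fell, a share of risers near that of all genes. CHRDL1, which traps BMP proteins, rose (1.34 ± 0.07), and BMP2 fell (-0.62 ± 0.09). Of 25 Notch and Hedgehog genes 5 rose and 5 fell. The Notch ligand DLL1 (-0.73 ± 0.07) and the effector HES1 (-0.88 ± 0.08) fell, and the effector HEY1 rose (1.04 ± 0.07). Retinoid genes changed at synthesis and breakdown. CYP26A1, which destroys retinoic acid, read 5.76, 6.03 and 6.20 at 1 day, against 7.15, 7.17 and 7.33 in uninjured cord (-1.22 ± 0.10, adjusted p = 7.66e-08). ALDH1A3 (1.22 ± 0.07) and ALDH1A1 (0.94 ± 0.05), which make it, rose. Over the list 9 of 23 rose and 5 fell. Among 18 HOX genes, which mark position along the body, 6 rose and 4 fell. HOXA13, a gene of the tail end, read 6.33, 6.53 and 6.58 at 1 day, against 7.75, 7.65 and 7.67 in uninjured cord (-1.21 ± 0.06), and HOXC8 fell (-0.73 ± 0.07). The largest HOX risers, HOXB6 (0.37 ± 0.09) and HOXA4 (0.35 ± 0.08), moved by less. In axon guidance 16 of 55 rose (29.1%, against 25.8% of all genes) and 7 fell, and 21 had a mean below 4.28 in both groups. The receptors ROBO1 (1.31 ± 0.10) and EPHA7 (1.23 ± 0.12) rose the most, and EPHA1 fell (-0.85 ± 0.05).

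Epithelial and pigment genes were more often lower. Of 35 epidermal genes 18 fell and 8 rose, and their summed level was 55553 to 56062 at 1 day and 65339 to 66874 in uninjured cord. CLDN3, a claudin of tight junctions, read 8.37, 8.35 and 8.35 at 1 day, against 10.06, 9.98 and 9.97 in uninjured cord (-1.64 ± 0.07). The epithelial factors GRHL1 (-1.97 ± 0.11), ESRP2 (-1.54 ± 0.08) and OVOL2 (-1.40 ± 0.07) fell, while TP63, the factor of basal epidermis, was not called on its brightest probe set (-0.20 ± 0.11). The average of the TP63 probe sets was called lower. RHCG, an ammonia channel of epithelia, rose (1.42 ± 0.05). Of 9 pigment cell genes 6 fell, TYRP1 by the most (-1.64 ± 0.07), and the receptor KIT rose (0.75 ± 0.09). Of 19 red cell genes 13 rose and 3 fell, with differences down to -1.33. The risers were led by ALAS2, the first enzyme of heme synthesis in red cells (1.62 ± 0.06), and spectrin SPTB (1.46 ± 0.07). Vessel genes counted 9 risers and 4 fallers among 24, with TAGLN and CNN1 the largest risers, while the lymphatic marker LYVE1 fell (-0.58 ± 0.06).

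Genes typical of liver, gut and kidney were measured as well. CDH17, an intestinal cadherin, read 8.20, 8.20 and 8.20 at 1 day, against 4.83, 4.72 and 4.92 in uninjured cord (3.37 ± 0.06). REG4, a secreted gut lectin, read 6.34, 6.54 and 6.29 at 1 day, against 4.49, 4.33 and 4.23 in uninjured cord (2.04 ± 0.08), with its uninjured arrays near the dim end. ARG1, the liver arginase, fell (-1.29 ± 0.05). Of 19 such genes 6 rose and 7 fell, near the background.

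The largest changes of all drew on several of these groups. The 15 largest rises among named genes whose arrays did not overlap ran from 3.94 to 2.52, and the 15 largest falls from -3.01 to -1.99. TCEA2, a factor that rescues stalled RNA polymerase II, had the largest rise. It read 8.84, 8.83 and 8.89 at 1 day, against 4.70, 4.81 and 5.22 in uninjured cord (3.94 ± 0.11, adjusted p = 3.36e-13). C1QTNF3, a secreted relative of complement C1q, read 7.86, 7.84 and 7.80 at 1 day, against 4.20, 4.27 and 4.02 in uninjured cord (3.67 ± 0.08) and had uninjured levels near the dim end. The cell adhesion gene CDH13 (2.81 ± 0.08), the muscle LIM gene CSRP2 (2.52 ± 0.05) and MYH7B, a slow myosin (2.81 ± 0.08, from the dim end), were also among the rises. Among the falls NCOA7, linked to oxidation resistance, read 5.22, 5.40 and 5.45 at 1 day, against 8.16, 8.07 and 8.19 in uninjured cord (-2.78 ± 0.08). FBXO5, which restrains the mitotic ubiquitin ligase (-2.11 ± 0.07), the calcium binding protein gene S100Z (-2.20 ± 0.19), the cartilage matrix gene MATN3 (-2.07 ± 0.08), the membrane protein genes MAL (-2.05 ± 0.05) and TMEM123 (-2.02 ± 0.06) completed them with genes already given.

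Many probe sets differed between 1 day and the later times or the drug, as tested in the same fit. The shares are over all probe sets or all named genes, whether or not they changed at 1 day against uninjured cord. Between 3 days and 1 day 40.6% of probe sets were called, between 7 days and 1 day 40.8%, and between ivermectin and 1 day 55.0%. Over the named genes 22.2% rose and 20.2% fell at 3 days against 1 day. At 7 days against 1 day 28.0% rose and 16.3% fell, and with ivermectin against 1 day 30.9% rose and 26.6% fell. These comparisons share the 1 day arrays. FOS averaged 7.41 in uninjured cord, 10.06 at 1 day and 5.96 at 7 days (n = 3 arrays each). Its difference from 1 day was -5.06 ± 0.07 at 3 days (adjusted p = 4.71e-16) and -3.68 ± 0.07 with ivermectin (adjusted p = 9.57e-15). SLC2A1 differed from its 1 day level by -4.16 ± 0.06 at 3 days and by -3.56 ± 0.06 with ivermectin. NFKBIA gave -3.85 ± 0.06 and -2.54 ± 0.06 in the same comparisons, DDIT4 -3.09 ± 0.08 and -4.12 ± 0.08, and PENK -1.60 ± 0.07 and -3.22 ± 0.07. For FOS, SLC2A1, NFKBIA and MMP2 the means at 3 and 7 days also lay below the uninjured mean.

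Other rises lasted. COL5A2 averaged 11.96 at 1 day, 12.03 at 3 days and 12.17 at 7 days, and its difference between 3 days and 1 day was 0.06 ± 0.08 (adjusted p = 0.554). MYL3 had 0.18 ± 0.04 at 3 days against 1 day and -0.49 ± 0.04 at 7 days. REG4 rose much further, by 6.23 ± 0.08 at 3 days against 1 day (adjusted p = 6.10e-17), and its level with ivermectin differed from that at 1 day by 0.06 ± 0.08 (adjusted p = 0.518). TAGLN was higher again at 3 days (0.92 ± 0.06) and 7 days (1.35 ± 0.06) than at 1 day.

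Some of the genes that fell were nearer the uninjured level by 3 days. CCNB1 stood 1.08 ± 0.06 above its 1 day level at 3 days and 1.68 ± 0.06 at 7 days, without reaching the uninjured mean. MCM7 was 0.77 ± 0.05 above its 1 day level at 3 days (adjusted p = 2.90e-09), and at 7 days the difference was -0.01 ± 0.05 (adjusted p = 0.851). EXOSC2 rose at 3 days against 1 day by 1.40 ± 0.06, while PSPH (0.00 ± 0.09, adjusted p = 0.984), NCOA7 (0.06 ± 0.08, adjusted p = 0.645) and PSMC5 (-0.11 ± 0.05, adjusted p = 0.101) were not called. INSIG1 rose by 2.20 ± 0.09 at 3 days against 1 day. CLDN3 fell further at 3 days against 1 day (-2.05 ± 0.07). MYC fell further too (-0.99 ± 0.07 at 3 days). GFAP was lower at 3 days than at 1 day (-0.93 ± 0.05) and higher at 7 days (0.22 ± 0.05). LYZ was higher than at 1 day at 3 days (0.73 ± 0.06) and at 7 days (0.96 ± 0.06).

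With ivermectin, the division and growth genes followed here were above their 1 day levels. The difference was 2.85 ± 0.06 for CCNB1, 1.64 ± 0.05 for MCM7 and 2.41 ± 0.06 for EXOSC2. PSMC5 gave 0.89 ± 0.05 and PSAT1 2.39 ± 0.05. MYBPC1 and COL5A2 were below their 1 day levels, at -4.02 ± 0.08 and -1.67 ± 0.08. GFAP differed by -0.18 ± 0.05 and the epidermal gene TP63 by -0.02 ± 0.11 (adjusted p = 0.869). CD74 differed by -2.24 ± 0.06. The ivermectin arrays stood closer to the uninjured arrays than to the 1 day arrays over all probe sets, and the cause was not tested. The spiked poly-A transcripts averaged 7.43 with ivermectin and 7.54 in uninjured cord, against 8.08, 8.33 and 7.94 at 1, 3 and 7 days. The ivermectin and uninjured arrays did not overlap the arrays without drug at 1, 3 and 7 days in this control. Its part in these differences was not tested.

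**Figure D5:**
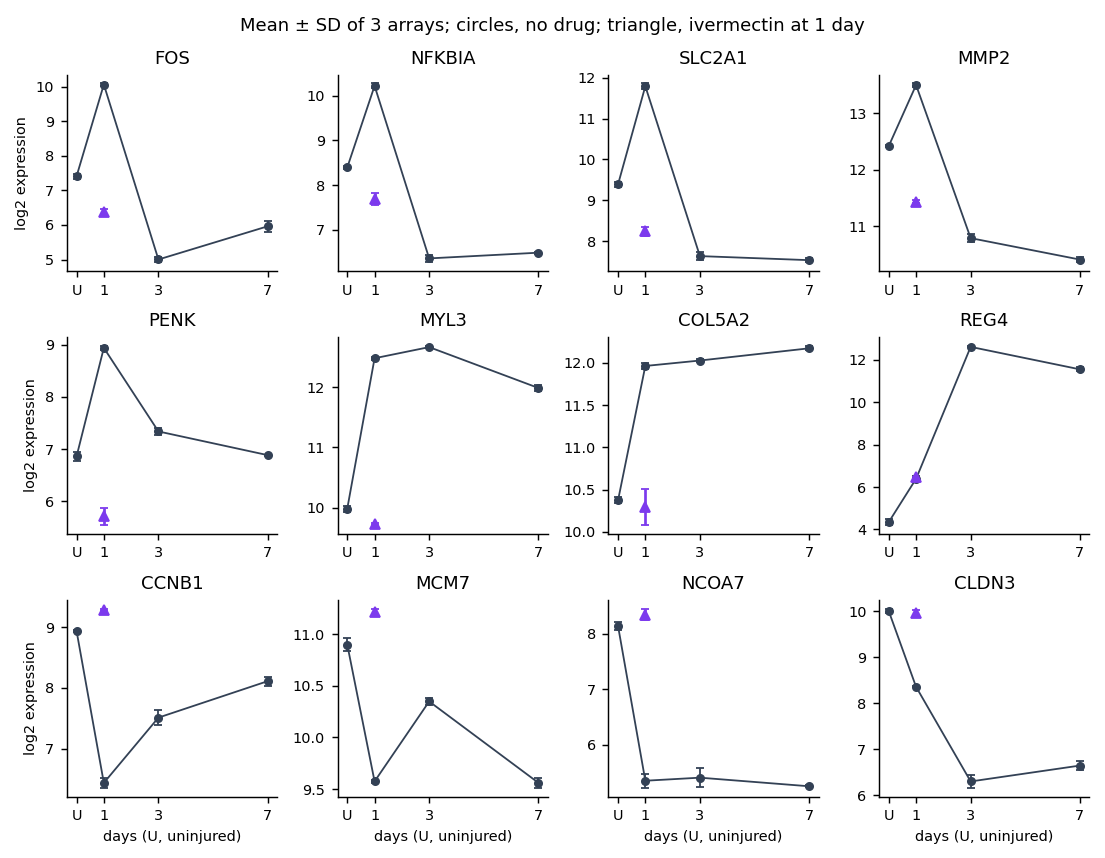
Mean log2 expression ± SD of 3 arrays for 12 genes in uninjured cord (U) and at 1, 3 and 7 days after injury (circles), with the ivermectin arrays at 1 day as triangles; vertical scales differ. FOS, NFKBIA, SLC2A1 and MMP2 peak at 1 day and are lowest at 3 or 7 days, COL5A2 and MYL3 stay up, and the triangles lie away from the 1 day circle for each gene except REG4.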

How the data were processed

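RNA from pooled spinal cord tissue was hybridised to single-colour Affymetrix expression arrays after 3′ labelling of total RNA, per the labels' protocols. The deposited values are log2 expression per probe set, normalised by the authors with RMA in Affymetrix Expression Console, per the submitters' processing notes, and were used as deposited. Whether all arrays were normalised together is not given in the sources used here. RMA sets all arrays to one distribution, so a shift of most genes in one direction cannot be seen, and the arrays carry no counts, so their number limits the precision.

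Of 20080 probe sets, 45 control probe sets were left out and 20035 tested. All 15 arrays entered 1 linear model with a mean per group (limma 3.58.1 in R 4.3.3, lmFit and eBayes, 10 residual and 4.26 prior degrees of freedom), and p-values, 2-sided, were adjusted over all probe sets by Benjamini-Hochberg at 0.05. Symbols came from the platform annotation: 10951 probe sets had 1 symbol (8639 genes) and 9084 had none, and each gene is read from the brightest of its probe sets, by the mean of the 15 arrays. Nothing in the labels says how the pools of a group differ, so p-values measure the spread between these arrays.

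Genes are named by a rule: the 15 largest rises and falls among called genes whose arrays do not overlap, and in each list the core genes and up to 6 called members with the largest differences. Genes outside it are said to be chosen after their values were seen. The members, the 79 gene lists and the divisions within them were chosen with earlier results of these data known. On simulated data made from these arrays, the fit called 91.0% of probe sets changed by 0.5 on the log2 scale, all of those changed by 1 or 2, and 10 of 19835 unchanged ones. There 19835 of 20035 probe sets were unchanged, whereas 53.8% were called in the data. The adjusted threshold depends on that share, so the simulated rates are not those of this comparison. The replicate numbers in the labels were checked as pairs. Residuals of same-numbered arrays correlated at 0.231, 0.0739 and 0.0734, and those of differently numbered arrays at -0.162 to 0.106. Residuals are centred within each group, so these values do not settle whether arrays were paired. The numbers were not treated as pairing the arrays, and counts with the number as a block are given below. The alternatives were a replicate block, each array left out, the 6 compared arrays only, an intensity trend, array weights, other centrings, dim probe sets left out, other rules for a gene's probe set and, chosen after seeing the data, the poly-A control as the level of comparison.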

Additional observations from a re-analysis of the deposited data

Results flagged for a closer look

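The difference from uninjured cord was not the same across the injured groups, by the test of the difference itself. Between ivermectin and 1 day, 11024 of 20035 probe sets differed (55.0%, limma, Benjamini-Hochberg adjusted). Between 3 days and 1 day 8138 differed (40.6%), and between 7 days and 1 day 8165 differed (40.8%). These comparisons share the 1 day arrays.

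The poly-A control probe sets, which lie outside the measured genes, read 0.546 higher at 1 day than in uninjured cord on the log2 scale. They averaged 8.08 at 1 day, 8.33 at 3 days and 7.94 at 7 days, against 7.54 in uninjured cord and 7.43 with ivermectin. Their part in the differences was not tested.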

How the results depend on the processing

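The counts of 5024 probe sets up and 5762 down moved by over 1.5 times under 1 alternative of those run. With the poly-A control as the level of comparison, chosen after seeing the data, 1191 rose and 16697 fell, since that scaling lowers every difference by the same amount and moves the median of all probe sets by -0.547. With each compared array left out in turn, 4620 to 4699 rose and 5368 to 5467 fell. With the replicate number as a block, 4946 rose and 5684 fell, although same-numbered arrays were not shown to be paired. Cyclic loess between the arrays gave 5615 up and 5163 down, and centring on the median 5737 up and 5182 down, which turned the majority from falls to rises. Of 302 named genes run under the alternatives, 294 kept their direction and side of the threshold under each of the alternatives run for them. The poly-A scaling was not among those alternatives, either for single genes or for gene lists. It lowers each difference by 0.546, so a rise smaller than that changes sign and each fall grows. The medians of the glycolysis (0.24), neuron (0.25) and complement (0.28) lists lie below that amount, and those of the sarcomere (0.95) and axoneme (0.84) lists above it. Calls of genes and lists on that scale were not counted. Averaging all probe sets of a gene turned CTSS to 0.63 and RRP12 to -0.020, and brought C3 (0.22), COL2A1 (-0.54) and TP63 (-0.43) past the threshold. GLRA2 lost its call in 3 of the fits with an array left out. SOCS3 gained one without uninjured array 1, TGFB1 under cyclic loess and TP63 with the 6 compared arrays only. Some counts of calls within gene lists moved by over 1.5 times. Cytosolic ribosomal proteins that rose numbered 3 to 16 against 8, and those that fell 4 against 7 under median centring and without uninjured array 1. Under cyclic loess, citric acid cycle genes that rose numbered 11 against 5, respiratory chain genes 11 up and 7 down against 7 and 13, adhesion genes that rose 8 against 5, and muscle calcium and energy genes that fell 3 against 5. DNA repair genes that rose numbered 10 against 5 under both other centrings, and respiratory chain genes that fell 8 under median centring. Averaging probe sets left 3 risers against 5 among the genes of cycle entry. Genes of eicosanoid and phospholipid mediators that fell numbered 3 against 5 under median centring and with dim probe sets left out. The cause of these changes was not tested. Dim probe sets limit what can be said of genes whose level lay below 4.28.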

Other observations

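Some gene groups outside those comparisons were counted at 1 day as well, and not all changed more often than the named genes as a whole. Of 22 genes that make sugars and bases for nucleotides, 12 fell and 2 rose, against 29.8% and 25.8% of all named genes. The purine enzymes PAICS (-0.64 ± 0.05) and GMPS (-0.63 ± 0.05) fell, and CTPS2, which makes CTP, rose (1.53 ± 0.08). In the citric acid cycle 5 of 27 rose (18.5%) and 6 fell (22.2%), both below the shares of all named genes. Under cyclic loess 11 rose. There OGDHL, a relative of the oxoglutarate dehydrogenase, rose (1.26 ± 0.14) and IDH3B fell (-0.92 ± 0.06).

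Of 24 cartilage and bone genes 8 rose and 8 fell (33.3% each), near the 25.8% and 29.8% of all named genes. Without 1 day array 2 the risers numbered 5. Aggrecan ACAN (1.46 ± 0.05) and lubricin PRG4 (1.29 ± 0.08) rose, while SP7, a factor of bone formation, fell (-1.29 ± 0.08) to a level near the dim end. Among metal handling genes 8 of 23 rose (34.8%) and 5 fell (21.7%). HPX, the plasma protein that binds heme, rose (1.15 ± 0.05), the zinc exporter SLC30A1 rose (0.87 ± 0.05) and the zinc transporter SLC39A7 fell (-1.03 ± 0.04). In the circadian clock 3 of 10 rose and 4 fell, with the kinase CSNK1D the farthest from 0 (-1.18 ± 0.08).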
